A study of Mus musculus with 14 samples.

Results

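T cell and cytotoxic lymphocyte genes were examined in the ovary and the uterus of aged mice by RNA sequencing of unsorted tissue. The 10 genes were chosen by name from the 21853 genes of the expression table, through the symbols that GENCODE mouse release M21 gives to the Ensembl identifiers. They were the CD3 chain genes Cd3d, Cd3e and Cd3g, the co-receptor genes Cd4, Cd8a and Cd8b1, and the granule and cytotoxicity genes Nkg7, Gzma, Gzmb and Prf1. All 10 were found in the table.

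The libraries came from 7 female C57BL/6J mice of 28 weeks of age. The 3 mice of the old control (OC) group received normal saline and the 4 mice of the old treated (OT) group received AMSC-CM, the conditioned medium in which mesenchymal stem cells of human amniotic membrane had been cultured, at 1 µL per g of body weight into the tail vein, in 6 injections 4 days apart. The medium was pooled over donors of amnion. Mice of both groups had first been given pregnant mare serum gonadotropin (10 IU) and, 48 h later, human chorionic gonadotropin (10 IU), so no group was free of superovulation hormones. The ovary and the uterus were sequenced, which gave 3 OC and 4 OT libraries per organ and 14 in all. Ovary and uterus libraries with the same number were taken to come from the same mouse, which the labels do not state in words. Tissue was used without sorting of cells, so fewer lymphocytes and less RNA per lymphocyte cannot be told apart. Whether whole organs or parts of them were taken is not stated.

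Values are FPKM, fragment counts corrected for transcript length and for the mapped fragments of the library, so levels can be set side by side between genes. Sequencing depth is unknown because no read counts were used here, and a value near 0 may rest on very few fragments. The summed FPKM of a library ran from 374816 to 577494 and was highest in the uterus of mouse OT1, and none of 10 housekeeping genes was at 0 in any library. The organ labels held on average: 10 of 10 ovary markers were lower in the uterus and 9 of 9 tested uterus markers were higher. Uterus markers were uneven among the ovaries, however. Hoxa10 was at 3.92, 53.4 and 27.7 FPKM in the OC ovaries and at 0.572, 6.09, 48.9 and 23.4 in the OT ovaries, beside 138 to 236 in the uteruses. Hoxa11 ran from 0.0707 in the OT1 ovary to 14.7 in the OC2 ovary. The part of this unevenness in the granule gene values of the ovaries was not tested. In the uterus, markers of other tissues moved with the OT group. The summed FPKM of 12 adipocyte genes was 116 to 313 in OC and 1384 to 12140 in OT, and all 12 were called higher. The sum of 13 genes of stratified squamous epithelium was 12.6 to 24.6 in OC and 65.5 to 956 in OT, with 8 of 12 genes called higher without a minimum level and Sprr3 at 0 in all libraries of both groups. In the ovary none of 2 tested squamous genes and 5 of 12 adipocyte genes were called higher in OT (sums of 254 to 373 in OC and 305 to 1946 in OT). The part of these tissues in the lymphocyte results was not tested.

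The T cell receptor recognises a peptide on a major histocompatibility complex molecule, and the CD3 chains that are assembled with it carry the signal into the cell. CD4 and CD8 bind the class II and class I molecules and define the helper and the cytotoxic T cells, whereas natural killer (NK) cells lack the receptor and the surface CD3 complex. Cytotoxic T cells and NK cells both hold granules with perforin, which opens the membrane of a target cell, and granzymes, serine proteases that enter through it. The uterus is known for a large population of resident NK cells that expands in early pregnancy, and the ovary holds scattered leukocytes that gather around ovulation and luteal regression.

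In the uterus the 4 granule genes had higher mean levels than the 6 T cell genes, whereas in the ovary the order was mixed. The mean FPKM over 7 uteruses was 24.1 ± 11.4 for Nkg7, 8.15 ± 3.99 for Gzmb, 3.50 ± 2.26 for Prf1 and 3.12 ± 1.57 for Gzma there (SD, n = 7). Below them came Cd3g at 1.39 ± 0.584, then Cd3e at 0.571 ± 0.375, Cd4 at 0.568 ± 0.232 and Cd3d at 0.534 ± 0.311, and last Cd8b1 at 0.270 ± 0.230 and Cd8a at 0.129 ± 0.108 (SD, n = 7). The ranges of all neighbours in this order overlapped, although Nkg7 exceeded Gzmb in all 7 uteruses. In the ovary Nkg7 again led with 3.27 ± 2.46, followed by Gzmb with 2.24 ± 1.88 and Cd3g with 1.01 ± 0.350 (SD, n = 7). Prf1 (0.737 ± 0.574), Cd3d (0.734 ± 0.884) and Gzma (0.729 ± 0.359) did not differ beyond their spread there, and Cd8b1 (0.128 ± 0.20) and Cd8a (0.120 ± 0.117) were again last (SD, n = 7). Nkg7 stood above 83.8% of all genes in the uterus and above 47.4% in the ovary, whereas Cd8a stood above 29.4% and 27.1%.

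**Figure D1:**
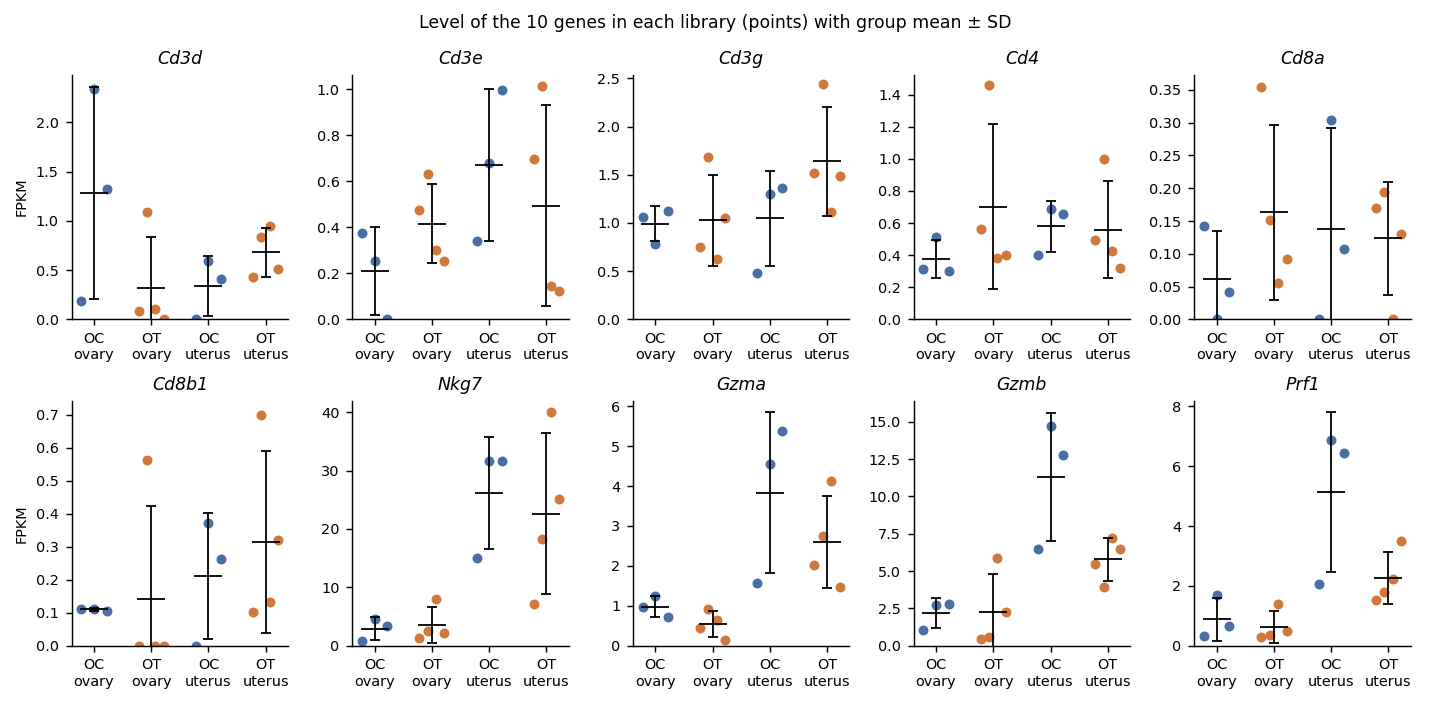
Points are the FPKM of each of the 10 genes (1 panel each, vertical axis from 0) in the OC (blue) and OT (orange) libraries of the ovary and the uterus, and horizontal bars with whiskers are the group mean ± SD with 3 OC and 4 OT mice. Nkg7, Gzma, Gzmb and Prf1 have higher means in the uterus, with every uterus above every ovary for Gzma only. The ranges of the other granule genes and of the CD3 and co-receptor genes overlap between the organs.

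The CD3 genes lie together on chromosome 9. Cd3d (ENSMUSG00000032094.8, chr9:44981786-44987339, plus strand) and Cd3g (ENSMUSG00000002033.14, chr9:44969572-44980431, minus strand) start 1355 bp apart and are read away from each other, and Cd3e (ENSMUSG00000032093.7, chr9:44998740-45009627, minus strand) follows (mm10). Cd3e overlaps the antisense gene Gm48719 and the same-strand gene Gm48720, so fragments shared with the latter could have been counted for either. Cd8a (ENSMUSG00000053977.13, chr6:71373427-71379173) and Cd8b1 (ENSMUSG00000053044.8, chr6:71322788-71337494) are neighbours on the plus strand of chromosome 6 with starts 50639 bp apart, and Cd4 (ENSMUSG00000023274.14, chr6:124864692-124888221, minus strand) lies elsewhere on it. The granule genes are on 4 chromosomes: Nkg7 (ENSMUSG00000004612.9, chr7:43437073-43438249, plus strand), Gzma (ENSMUSG00000023132.8, chr13:113093825-113100981, minus strand), Gzmb (ENSMUSG00000015437.5, chr14:56258838-56262260, minus strand) and Prf1 (ENSMUSG00000037202.6, chr10:61297833-61304680, plus strand).

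The first question was how the organs differed. The 4 granule genes were higher in the uterus than in the ovary in every mouse, 3.81-fold for Gzma to 8.23-fold for Nkg7, whereas none of Cd3d, Cd3g and Cd4, the T cell genes abundant enough to test, passed. Differences were taken on log2(FPKM + 0.1) with limma, averaging the OC and OT differences. Since 0.1 is added to both sides, this scale understates the change of low genes. Of the 10 genes, 7 reached the minimum mean of 0.5 FPKM over 14 libraries and were tested, and Cd3e, Cd8a and Cd8b1 did not. A gene was called at a Benjamini-Hochberg adjusted p under 0.05 and a difference of at least 1 on the log2 scale. On these terms 4 of 7 were called, all higher in the uterus, against 10.0% of the 14557 genes tested. Calls over all genes were split into 1457 higher and 1396 lower in the uterus. Scaling to the total FPKM moved the median of all genes to -0.24 and the split to 1058 and 1865, and the 4 calls kept their direction.

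Nkg7, a granule protein of NK cells and cytotoxic T cells that is needed for degranulation, was at 0.732, 4.55 and 3.39 FPKM in the OC ovaries and at 1.36, 2.59, 8.07 and 2.23 in the OT ovaries. In the uteruses of the same mice, in the same order, it was at 15.1, 31.7 and 31.6 in OC and at 7.09, 18.2, 39.98 and 25.1 in OT. Only the OT1 uterus fell below the highest ovary, that of OT3, and each uterus exceeded the ovary of its own mouse. The difference was 3.04 (SE 0.50, limma adjusted p = 0.0001834), the largest of the 7 tested. Leaving out any 1 mouse gave 2.84 to 3.19.

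Gzma, which encodes granzyme A, a tryptase of cytotoxic granules, was at 0.966, 1.24 and 0.725 FPKM in the OC ovaries and at 0.451, 0.929, 0.639 and 0.154 in the OT ovaries. In the uteruses it was at 1.56, 4.57 and 5.39 in OC and at 2.02, 2.74, 4.13 and 1.47 in OT. It was the only member with every uterus above every ovary, a pattern found in 11.5% of all genes tested, and the difference was 1.93 (SE 0.36, limma adjusted p = 0.0005759).

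Gzmb, which encodes granzyme B, the protease that cleaves caspases in target cells, was at 1.05, 2.71 and 2.82 FPKM in the OC ovaries and at 0.449, 0.553, 5.88 and 2.24 in the OT ovaries. In the uteruses it was at 6.46, 14.7 and 12.8 in OC and at 5.50, 3.90, 7.21 and 6.49 in OT. The ovaries spread widely, with OT3 above the uteruses of OT1 and OT2, but each uterus exceeded its own ovary, and the difference was 2.14 (SE 0.48, limma adjusted p = 0.00222).

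Prf1, which encodes perforin, was at 0.309, 1.70 and 0.661 FPKM in the OC ovaries and at 0.274, 0.342, 1.40 and 0.482 in the OT ovaries. Its uterine values were 2.05, 6.89 and 6.44 in OC and at 1.53, 1.81, 2.23 and 3.51 in OT. Only the OC2 ovary reached into the range of the uteruses, and the difference was 2.18 (SE 0.42, limma adjusted p = 0.0006595). A higher value in the uterus in 7 of 7 mice, which all 4 granule genes showed, was found in 20.2% of all genes tested.

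The CD3 genes, which mark T cells more narrowly, gave a different picture. Cd3g, the gamma chain gene, was at 1.06, 0.786 and 1.12 FPKM in the OC ovaries and at 0.752, 1.68, 0.630 and 1.05 in the OT ovaries. In the uteruses it was at 0.480, 1.296 and 1.36 in OC and at 1.52, 2.44, 1.12 and 1.48 in OT. It was above 0 in every library and higher in the uterus in 6 of 7 mice, with a difference of 0.31 (SE 0.28, limma adjusted p = 0.363).

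Cd3d, the delta chain gene, was at 0.185, 2.33 and 1.33 FPKM in the OC ovaries and at 0.0865, 1.09, 0.110 and 0 in the OT ovaries. Uterine values were 0, 0.597 and 0.414 in OC and at 0.426, 0.838, 0.949 and 0.516 in OT. It was lower in the uterus in all 3 OC mice and higher in 3 of 4 OT mice, and the averaged difference was -0.04 (SE 0.65, limma adjusted p = 0.967).

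Cd3e, the epsilon chain gene, was at 0.377, 0.252 and 0 FPKM in the OC ovaries and at 0.476, 0.633, 0.30 and 0.256 in the OT ovaries. In the uterus it stood at 0.339, 0.680 and 0.998 in OC and at 0.696, 1.01, 0.146 and 0.123 in OT. Its mean stayed below the minimum, and it was higher in the uterus in 4 of 7 mice, with an untested difference of 0.71. The 3 genes encode chains of 1 complex. OT2 held the highest Cd3e and Cd3g of both organs, whereas Cd3d was highest in the OC2 ovary and the OT3 uterus.

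Cd4, the co-receptor of helper T cells, which some macrophages and dendritic cells also carry, was at 0.314, 0.511 and 0.299 FPKM in the OC ovaries and at 0.562, 1.46, 0.381 and 0.400 in the OT ovaries. Its values in the uterus were 0.398, 0.687 and 0.657 in OC and at 0.495, 0.997, 0.424 and 0.319 in OT. OT2 was the highest in both organs, and the organs overlapped, with a difference of 0.16 (SE 0.32, limma adjusted p = 0.698) that turned to -0.03 when libraries were scaled to their total FPKM.

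Cd8a, the alpha chain gene of the co-receptor of cytotoxic T cells, was at 0.142, 0 and 0.0415 FPKM in the OC ovaries and at 0.355, 0.151, 0.0558 and 0.0918 in the OT ovaries, and at 0, 0.304 and 0.108 in the OC uteruses and 0.169, 0.194, 0 and 0.130 in the OT uteruses. Cd8b1, the beta chain gene, was at 0.112, 0.112 and 0.105 in the OC ovaries and at 0, 0.564, 0 and 0 in the OT ovaries, and at 0, 0.370 and 0.261 in the OC uteruses and 0.102, 0.699, 0.133 and 0.320 in the OT uteruses. Both genes were listed at 0 in several libraries whose housekeeping genes were not, and neither reached the minimum for a test. The untested differences between uterus and ovary were 0.10 for Cd8a and 0.72 for Cd8b1, the latter higher in the uterus in 6 of 7 mice.

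**Figure D2:**
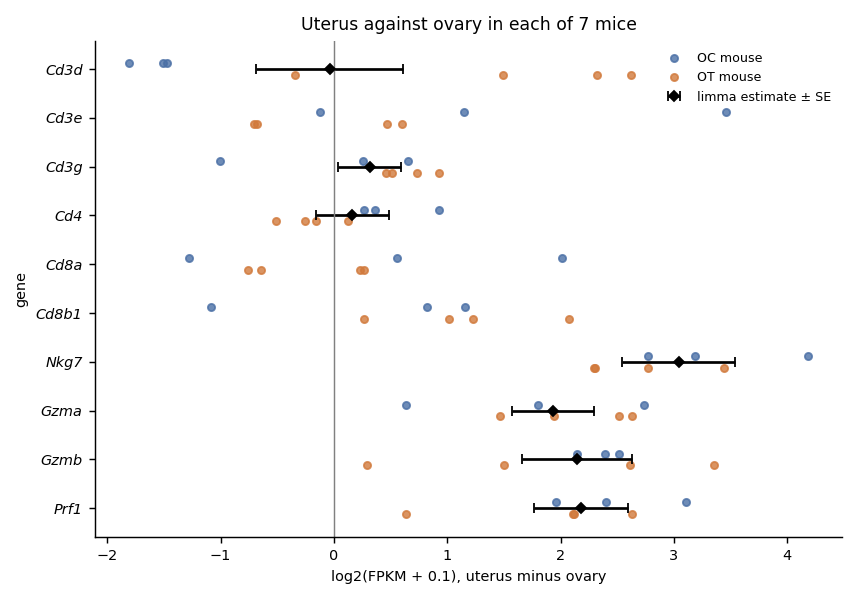
Each point is the difference between the uterus and the ovary of 1 mouse on the log2(FPKM + 0.1) scale (OC blue, OT orange), and black diamonds with whiskers are the limma estimate ± SE of the 7 tested genes. All points of Nkg7, Gzma, Gzmb and Prf1 lie to the right of 0, and for Cd3d the 3 OC mice lie to the left and 3 of 4 OT mice to the right.

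The promoters of the granule genes are shown because these genes were higher in the same organ. RefSeq (GRCm38.p6) held a promoter for 8 of the 10 genes, and Cd4 and Cd8b1 were not matched. The 250 bases before the RefSeq start were searched on both strands for 4 short motifs: the T-box site GGTGTG, the RUNX core TGTGGT, the ETS core GGAAGT and the TATA box TATAAA. T-box, RUNX and ETS factors act in lymphocyte gene regulation. The stretches below run 5′ to 3′ on the strand of the gene and end at the earlier of the RefSeq and GENCODE starts. Capitals mark a RUNX or ETS core on either strand. They are chr7:43436888-43437072 (plus strand) for Nkg7, chr13:113100982-113101231 (minus) for Gzma, chr14:56262335-56262584 (minus) for Gzmb and chr10:61297586-61297832 (plus) for Prf1.
Nkg7: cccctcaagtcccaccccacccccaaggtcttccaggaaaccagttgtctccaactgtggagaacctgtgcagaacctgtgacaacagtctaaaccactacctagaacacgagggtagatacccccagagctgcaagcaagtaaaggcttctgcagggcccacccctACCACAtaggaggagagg
Gzma: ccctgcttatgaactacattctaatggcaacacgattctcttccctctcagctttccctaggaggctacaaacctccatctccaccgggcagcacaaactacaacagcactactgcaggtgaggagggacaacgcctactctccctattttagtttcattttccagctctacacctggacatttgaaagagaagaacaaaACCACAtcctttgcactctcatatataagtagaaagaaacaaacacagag
Gzmb: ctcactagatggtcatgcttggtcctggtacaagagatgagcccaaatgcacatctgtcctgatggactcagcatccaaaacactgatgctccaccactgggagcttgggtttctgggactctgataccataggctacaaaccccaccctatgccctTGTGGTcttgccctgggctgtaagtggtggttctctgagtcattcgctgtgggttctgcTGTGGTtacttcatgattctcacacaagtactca
Prf1: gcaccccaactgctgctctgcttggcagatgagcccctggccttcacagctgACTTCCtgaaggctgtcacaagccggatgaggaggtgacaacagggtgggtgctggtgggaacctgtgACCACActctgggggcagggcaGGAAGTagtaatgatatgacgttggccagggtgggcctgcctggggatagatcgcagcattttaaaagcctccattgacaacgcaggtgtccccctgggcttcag
The RUNX core was in all 4 of these windows, at -83 in Nkg7, -50 in Gzma, -93 and -34 in Gzmb and -130 in Prf1, counted from the RefSeq start. It was in none of the windows of Cd3d, Cd3e, Cd3g and Cd8a, and 14.05% of 32851 promoters held it. Prf1 also held 2 ETS cores, at -198 and -108, while Cd3d and Cd3e held 1 each (19.74% of all promoters). The T-box site was in Nkg7, at -13 and beyond the stretch shown, and in Cd3d (16.28% of all promoters). The exact letters TATAAA were in none of the 8 (12.37%). Variants of the TATA box were not searched, and the Gzma stretch holds the similar letters tatataag. The motifs do not overlap one another in these windows. These matches are letters in a window and carry no measurement of factor binding.

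The other lymphocyte genes were read from lists. The minimum level was set on the mean over both organs, so a gene could pass through the higher organ alone, and list counts are therefore given over all genes fitted without a minimum. None of the 4 called members passed in this way, and all 4 were called without a minimum as well. Of all 18473 genes fitted without a minimum, 1608 were called higher in the uterus and 1849 lower. The NK cell list went the same way as the granule genes, with 15 of 18 called higher in the uterus, none lower, and a median difference of 1.99. All 18 also passed the minimum, 4 of the 15 (Klre1, Klra4, Eomes and Tbx21) only through the uterus. The exceptions were Klrc1 (0.29), Il18rap (0.54) and Itga2 (-0.36). The count was 13 to 15 under every alternative. Genes chosen for the size of their difference after values were seen were Ncr1, the activating receptor NKp46 (3.34, limma adjusted p = 0.0006484), the Ly49 receptor genes Klra4 (3.23, limma adjusted p = 6.796e-05) and Klra8 (3.10, limma adjusted p = 0.0003325), the chemokine gene Xcl1 (2.94, limma adjusted p = 0.002712) and Eomes, a T-box factor of NK cells (2.68, limma adjusted p = 0.0004563). Each of these 5 was higher in the uterus in 7 of 7 mice. The summed FPKM of the 18 genes was 13.4 to 34.1 in the ovaries of both groups and 56.1 to 148 in the uteruses.

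Of the T cell receptor and signalling list, 7 of 20 genes were called higher in the uterus and 1 lower without a minimum, with a median of 0.77, and 8 of 17 higher with it. The latter fell to 1 higher and 1 lower with a pseudocount of 1, to 4 higher and 2 lower with total FPKM scaling, and to as few as 5 higher without 1 mouse (OT4). The genes called higher included the kinase gene Lck (1.22) and Cd247, the zeta chain that NK cells share (1.09), and the lower gene was Tcf7 (-1.37), again chosen after values were seen. Both higher calls were lost with a pseudocount of 1, and that of Cd247 also with total FPKM scaling and without OT3. Gata3, at 0.42 FPKM in ovaries and 2.56 in uteruses, passed the minimum only through the uterus. Txk stood on both this list and the NK cell list. Of the T cell subset list, 3 of 20 genes were called higher and 1 lower without a minimum. With it these were Klf2 (1.02) and Tigit (1.23), of 9 tested, and Pdcd1 (-2.64), which passed only through the ovary. Both higher calls were lost with a pseudocount of 1, that of Klf2 also with total FPKM scaling and without OC1 or OT1, and that of Tigit without OC3. Il17a and Il4 were at 0 in all libraries of 3 of the 4 groups. Of the remaining granzyme and release genes, 6 of 19 were called higher and 2 lower without a minimum, and 5 and 2 of 14 with it. The granzyme gene Gzmc (2.77, lost without OT2), the protease gene Ctsw (1.54) and the granule proteoglycan Srgn (1.26) were higher, as were Gzmf (1.99) and Fasl (1.23), which passed only through the uterus and lost their calls with a pseudocount of 1 (Gzmf also without OC1, OC3 or OT2), whereas the docking genes Unc13d (-2.54) and Rab27a (-1.38), which many secretory cells use, were lower.

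Ptprc (CD45), carried by all leukocytes, was itself higher in the uterus. It was at 4.94, 8.09 and 6.71 FPKM in the OC ovaries and at 6.48, 12.6, 7.97 and 8.01 in the OT ovaries, and at 11.995, 21.8 and 23.8 in the OC uteruses and 17.4, 20.5, 16.1 and 17.5 in the OT uteruses. Only the OC1 uterus was below the highest ovary, and the difference was 1.28 (SE 0.18, limma adjusted p = 5.685e-05), smaller than that of each granule gene. Among all 10 pan-leukocyte genes 3 were called higher. Without a minimum, 3 of 13 were called higher of the macrophage list and 6 of 12 of the neutrophil and mast cell list. The counts were 2 of 11 with 1 lower for the dendritic cell list, 2 of 8 for the lymph node list and 0 of 13 for the B cell list.

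Ratios to a second gene of the same library were taken next. The log2 ratio of Nkg7 to Ptprc was -1.51 ± 0.944 for ovaries and 0.234 ± 0.798 for uteruses (SD, n = 7 mice), higher in the uterus in 7 of 7 mice by 1.75. An exact two-sided sign-flip permutation test gave p = 0.0156, the smallest it can give with 7 mice, and 0.150 after Benjamini-Hochberg adjustment over 12 tests. The ratio was higher in the uterus in 6 of 7 mice for Prf1, by 0.89 (exact permutation p = 0.0312, adjusted 0.150), for Gzmb, by 0.87 (exact permutation p = 0.0781, adjusted 0.156), and for Gzma, by 0.71 (exact permutation p = 0.0625, adjusted 0.150). These 12 tests were added after the organ difference had been seen, and none passed the correction. The smallest p possible for OT against OC was 0.0571. An adjusted p under 0.05 therefore needed the smallest possible p in every organ comparison of the set, so not passing says little. The planned 18 tests had the same limit. The ratios to Cd3e, which belonged to the planned 18 tests, moved the same way: Nkg7 to Cd3e was higher in the uterus by 2.40 (exact permutation p = 0.0312, adjusted 0.343) and Gzma to Cd3e by 1.36 (exact permutation p = 0.0469, adjusted 0.343), each in 6 of 7 mice. By contrast, Cd3e to Ptprc was lower in the uterus in 6 of 7 mice, with a difference of -0.65 (exact permutation p = 0.172, adjusted 0.619).

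**Figure D3:**
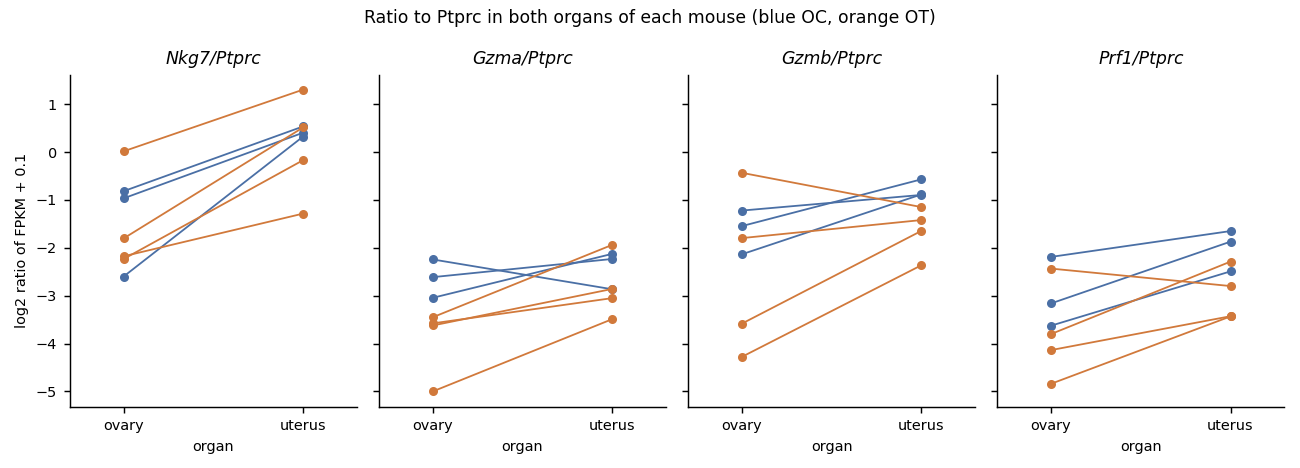
Lines join the ovary and the uterus of each mouse (OC blue, OT orange), and the vertical axis is the log2 ratio of FPKM + 0.1 to that of Ptprc. The line of Nkg7 rises in all 7 mice and those of Gzma, Gzmb and Prf1 rise in 6 of 7.

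The ratio of Cd8a to Cd4 was alike in both organs, with log2 values of -1.58 ± 0.812 for ovaries and -1.63 ± 0.638 for uteruses (SD, n = 7) and a difference of -0.05 (exact permutation p = 0.891, adjusted 0.968). The ratio of Cd8b1 to Cd8a was -0.134 ± 1.25 for ovaries and 0.591 ± 0.675 for uteruses (SD, n = 7), a difference of 0.73 (exact permutation p = 0.141, adjusted 0.619). Gzmb to Gzma differed by 0.15 (exact permutation p = 0.781, adjusted 0.968). With Cd8a, Cd8b1 and Cd3e near 0, the ratios that contain them rest on values close to the 0.1 that was added. The OC3 ovary, where Cd3e was at 0, gave a ratio of Cd3e to Ptprc that moves with Ptprc alone, and the ratios to Cd3e share this limit.

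The second question was whether AMSC-CM changed these genes. None of the 10 genes was called in either organ in the fit described next. In the uterus Gzmb was called (-1.055) when libraries were scaled to their total FPKM. Some other alternative fits, among them ones without 1 mouse, called members too, as given below. In each organ a gene was called when the log2 fold change reached 1 in either direction with an unadjusted p up to 0.05, the cutoffs of the study, in a limma fit of the 7 libraries of that organ over genes averaging 0.5 FPKM or more. In the ovary 7 of the 10 genes were tested and 0 were called, against 0.451% of 14415 genes, and none had an unadjusted p under 0.05. In the uterus 8 were tested and 0 were called, against 2.9% of 14151 genes, and 1, Gzmb, had an unadjusted p under 0.05, against 8.2%. In these fits no gene of the whole table had a limma adjusted p under 0.05 in either organ, and at an unadjusted p under 0.05 there were 650 ovarian and 1160 uterine genes. Fitting all 14 libraries together gave 47 uterine genes at an adjusted p under 0.05, none of them a member, and leaving out OT3 gave 1 ovarian and leaving out OT1 gave 2 uterine genes. In no member did the OT and OC libraries lie apart, as they did in 5.91% of ovarian and 11.9% of uterine genes. Calls over all genes in the uterus were split into 316 higher and 94 lower, and into 273 and 146 with total FPKM scaling, which moved the median of all genes to -0.13.

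**Figure D4:**
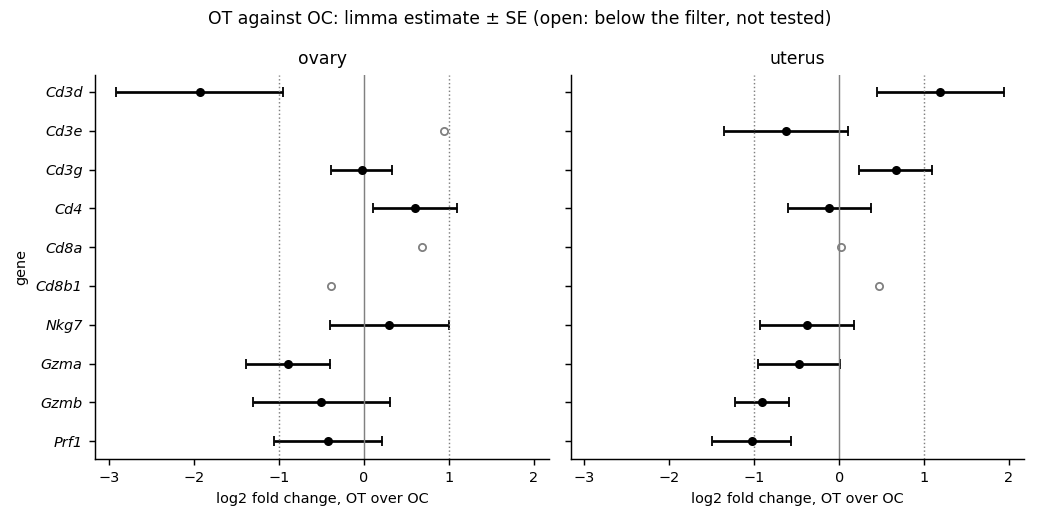
Filled points with whiskers are limma log2 fold changes of OT over OC ± SE for the tested genes (7 in the ovary, 8 in the uterus), open points are genes below the minimum level, and dotted lines mark a log2 fold change of 1 in each direction. Prf1 in the uterus and Cd3d in both organs lie past a dotted line without a call.

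In the uterus the granule genes had the lower means in OT, with no call in the fit described above. Gzmb was called under total FPKM scaling, and the calls without OC1 are given below. Gzmb was at 11.3 ± 4.30 FPKM in OC (SD, n = 3) and 5.78 ± 1.43 in OT (SD, n = 4), a log2 fold change of -0.91 (SE 0.32, limma adjusted p = 0.550). Prf1 was at 5.13 ± 2.67 and 2.27 ± 0.877, a log2 fold change of -1.03 (SE 0.46, limma adjusted p = 0.600), with an unadjusted p above 0.05. Gzma had a log2 fold change of -0.47 (SE 0.49, limma adjusted p = 0.727) and Nkg7 of -0.38 (SE 0.55, limma adjusted p = 0.809).

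For Gzmb and Prf1 the groups overlapped through the OC1 uterus. Its Gzmb was at 6.46, among the OT values, whereas OC2 and OC3 were above all of them, and the same held for Prf1. For Nkg7 the OT3 uterus was above every OC uterus. The OC1 uterus was also the lowest of the 7 uteruses in Ptprc and had a summed NK cell list of 56.7 FPKM beside 148 and 132 in the other OC uteruses and 56.1 to 78.0 in OT. Without this mouse, 3 members were called lower in the OT uterus, Gzma (-1.01), Gzmb (-1.27) and Prf1 (-1.58), all with a limma adjusted p of 0.696, as were 10 of the 18 NK cell genes, against 0.975% of 14151 genes (138) called lower in that fit. Without OC2 or OC3, Gzmb was at -0.68 and -0.78 and Prf1 at -0.73 and -0.78, with no call. The ratio of Gzmb to Ptprc in the uterus was lower in OT by 0.86 on the log2 scale (exact permutation p = 0.0571, adjusted 0.150). That p is the smallest possible with 3 against 4, so every OT uterus was below every OC uterus in this added comparison. How many of all genes lie apart as a ratio to Ptprc was not counted, and the low Ptprc of the OC1 uterus raises its ratio. The ratio of Prf1 to Ptprc was lower in OT by 0.98 (exact permutation p = 0.114, adjusted 0.196).

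The T cell genes had no common direction. In the uterus Cd3d (1.19, SE 0.75, limma adjusted p = 0.627) and Cd3g (0.66, SE 0.43, limma adjusted p = 0.631) had the higher mean in OT, and Cd3e (-0.62, SE 0.73, limma adjusted p = 0.759) and Cd4 (-0.12, SE 0.49, limma adjusted p = 0.938) the lower. In the ovary Cd3d was at 1.28 ± 1.08 FPKM in OC (SD, n = 3) and 0.322 ± 0.515 in OT (SD, n = 4), a log2 fold change of -1.93 (SE 0.99, limma adjusted p = 0.997). The OC1 ovary lay among the OT values and the OT2 ovary among the OC values, and Cd3d was called without OC1 (-2.83) and without OT2 (-2.66). Cd4 was at 0.60 (SE 0.49, limma adjusted p = 0.997) and Cd3g at -0.02 (SE 0.35, limma adjusted p = 1.000). Cd3e (0.95), Cd8a (0.68) and Cd8b1 (-0.38) were not tested in the ovary, nor were Cd8a (0.02) and Cd8b1 (0.47) in the uterus.

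The granule genes of the ovary spread over both directions. Gzma had a log2 fold change of -0.89 (SE 0.50, limma adjusted p = 0.997), and without OT2 it was called at -1.17. Gzmb was at -0.50 (SE 0.81), Prf1 at -0.42 (SE 0.64) and Nkg7 at 0.30 (SE 0.70), with limma adjusted p of 0.997, 0.997 and 0.998. The OT3 ovary had the highest Nkg7 and Gzmb of all ovaries. The uterus marker Hoxa10 was highest in the OC2, OT3 and OC3 ovaries (53.4, 48.9 and 27.7 FPKM), and so were Nkg7, Gzmb and Prf1. Prf1 followed the order of Hoxa10 over all ovaries, whereas Gzma was highest in OC2, OC1 and OT2. The part of uterus marker content in these ovarian values was not tested. Gzma to Cd3e was lower in the OT ovaries by 1.84 on the log2 scale (exact permutation p = 0.0571, adjusted 0.343), and Gzma to Ptprc by 1.28 (exact permutation p = 0.0571, adjusted 0.150).

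Whether OT against OC differed between the organs was tested as the fold change in the uterus minus that in the ovary. No member was called at a limma adjusted p under 0.05, against 0.0% of 14557 genes, and 746 genes had an unadjusted p under 0.05. A looser rule, a difference of 1 in either direction with an unadjusted p up to 0.05, was passed by 1.83% of genes and by Cd3d alone of the members, with a difference of 3.12 (SE 1.295, limma adjusted p = 0.844). Its OT ovaries were all below the mean FPKM of the OC ovaries and its OT uteruses all above that of the OC uteruses. The other 6 tested members differed by -0.72 (Cd4) to 0.69 (Cd3g), with limma adjusted p of 0.847 to 0.931.

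The remaining lymphocyte lists were read for the same comparison. Of the NK cell list 0 of 18 were called higher and 1 lower in the OT uterus, Xcl1 (-1.20, SE 0.32, limma adjusted p = 0.485), whose OT and OC libraries did not overlap. This call was lost without OT2 and with all 14 libraries in 1 fit. In this list 15 of 18 values lay below 0, with a median of -0.68 against 0.01 over all genes. Its most abundant members were the interleukin receptor gene Il2rb (-0.81, SE 0.53) and the chemokine gene Ccl5 (-0.56, SE 0.58). In the ovary 1 of 12 was called, the receptor gene Klrk1 (1.27, SE 0.55, limma adjusted p = 0.997), a call lost in 8 of 15 alternatives, no minimum and leaving out OC1, OC3, OT2, OT3 or OT4 among them. The most abundant, Itga2 and Il2rb, were at -0.37 and -0.01. Of the granzyme and release list Gzmf was called lower in the OT uterus (-1.77, SE 0.61, lost without OC2 and with all 14 libraries in 1 fit), 1 of 14, beside Lamp1 (0.35) and Srgn (-0.31), and 0 of 13 were called in the ovary, where Lamp1 was at 0.01 and Ctsc at -0.04.

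Of the T cell signalling list 1 of 18 was called in the OT uterus, the transcription factor gene Lef1 (-1.41, SE 0.53), and 0 of 15 in the ovary. The call of Lef1 was lost without OC1, OC2, OC3, OT1 or OT2. Its most abundant genes, Fyn and Thy1, which other tissues also express, were at -0.34 and -0.36 in the uterus and 0.08 and -0.16 in the ovary. Of the T cell subset list 1 of 11 was called in the uterus, the inhibitory receptor gene Tigit (-1.56, SE 0.40), and 0 of 9 in the ovary, with Klf2 at -0.16 and 0.05 and S1pr1 at 0.18 and -0.09 in uterus and ovary. Of all genes, 427 of 17569 were called higher in the OT uterus without a minimum and 316 of 14151 with it. In the B cell list 5 of 13 were called higher there without a minimum and 4 of 11 with it. These were Jchain (1.94, SE 0.61), Cd79b (1.62, SE 0.55, lost without OC3), Ms4a1, which encodes CD20 (2.82, SE 0.96, lost without OC2), and Cd79a (1.64, SE 0.70, lost in 9 of 15 alternatives, leaving out any mouse but OT1 among them). Ms4a1 (0.0518 FPKM in OC and 1.85 in OT) and Cd79a (0.287 and 1.61) passed the minimum only through the OT group. Both OT means came mostly from the OT2 uterus, at 5.99 and 4.36, beside at most 0.55 and 0.83 in the other OT uteruses. The list had sums of 9.95 to 14.1 FPKM in OC and, in OT1 to OT4, 46.3, 119, 21.7 and 18.1. In the ovary 1 of 9 was called, Cd22 (1.12). Of the lymph node list Cxcl13 was called in the uterus (2.83), passing the minimum only through the OT group, and Ltb in the ovary (1.36), with Glycam1 and Madcam1 at 0 in all uteruses. No gene of the macrophage, neutrophil and mast cell lists was called in either organ, with Lyz2 at 0.87 and 0.61 and Cma1 at 0.22 and 0.10 in uterus and ovary. Batf3 (1.14) of the dendritic cell list and Cd37 (1.12) of the pan-leukocyte list were called in the ovary, and none of either list in the uterus. With a pseudocount of 1 the calls of Lef1, Tigit, Gzmf, Klrk1, Ms4a1, Cd79a, Cd22, Ltb, Batf3 and Cd37 were lost. Leaving out 1 mouse ended those of Cd22 (OT2), Ltb (OC3 or OT2), Batf3 (OC2) and Cd37 (OC1 or OT2).

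**Figure D5:**
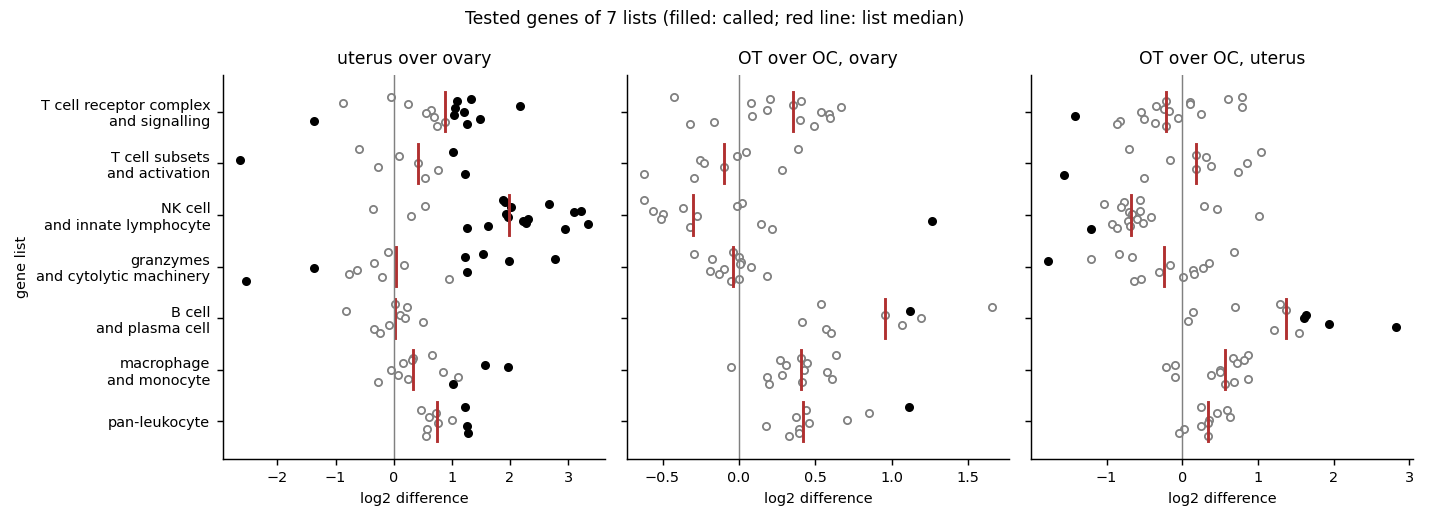
Each point is a tested gene of 1 of 7 lists, on the log2 scale, for the uterus over the ovary (left) and for OT over OC in the ovary (middle) and the uterus (right), with horizontal axes of different range. Filled points are called, and red lines are list medians. The NK cell list is shifted to the right between organs (median 1.99) and to the left in the OT uterus (median -0.68), where 1 of 18 genes is filled.

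The genes whose pattern over the 7 libraries of an organ was most like the mean of Cd3d, Cd3e and Cd3g were named from Pearson r on log2(FPKM + 0.1). In the ovary these were Mettl8 (r = 0.967), Zfp367 (0.962), Zfat (0.961), Stk4 (0.952) and Psmb3 (0.943) of 14408 genes. In the uterus they were Mocs3 (0.984), Lrmda (0.979), Inmt (0.966), Hist1h1c (0.961) and Snrnp35 (0.960) of 14143. The members themselves ranged widely: with the same mean, Cd8b1 had r = 0.904, Gzma 0.750, Cd4 0.698, Nkg7 0.0616, Cd8a -0.191 and Gzmb -0.342 in the ovary, and Cd8b1 0.836, Cd4 0.775, Cd8a 0.717, Gzma 0.532, Prf1 0.152, Nkg7 0.0718 and Gzmb -0.0151 in the uterus. Even Cd3e, which is part of the mean, had r = 0.213 in the ovary. With 7 libraries that share their organ and their unknown depth, high values arise among so many genes, and these r are given as a description.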

How the data were processed

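Total RNA of the ovary and uterus of 7 mice was rRNA-depleted and made into stranded libraries. By the submitters' notes and the study's methods, the authors trimmed reads with Skewer 0.2.2, aligned them to mm10 with STAR 2.5 and deposited FPKM values from Cufflinks 2.2.1, 1 table of 14 libraries. Groups were taken from the labels. Read counts were not used here, so depth is unknown, the Cuffdiff test of the study was not run and no counting interval is given. All 21853 identifiers matched GENCODE M21 (48 genes share a symbol, none of them listed here).

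Values were taken as log2(FPKM + 0.1) and fitted with limma 3.58.1 (eBayes with trend, R 4.3.3) over all genes averaging 0.5 FPKM or more, with Benjamini-Hochberg adjustment over all tested genes. The fit was tested on simulated data. Ratios were tested with exact permutations (Python 3.11.15). The p-values of OT against OC within an organ and of the ratios measure the spread between mice of 1 cohort. Those between organs and of the response come from a fit of 14 libraries without a mouse term. There both organs of a mouse were treated as independent, and the mouse as a block was an alternative. Same-numbered ovary and uterus libraries were taken to come from 1 mouse, which the labels give only through the shared number. Their deviations from the group means had a mean r of 0.141 (0.074 to 0.254), against -0.023 (-0.235 to 0.248) for other pairs. These ranges overlap, so the correlations do not settle the pairing.

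All 10 members were named throughout. From each of 14 lists, genes called in OT against OC were named (at most 4) and, with fewer than 2 called, the 2 of highest mean FPKM, except that for lists of other cell types some of the latter were left out. The members and lists were chosen with earlier results of these data known. Alternatives were other pseudocounts (1 and 0.01), no filter, other scalings, robust variances, all 14 libraries in 1 fit, blocks and leaving out each mouse. Ratios to Ptprc were added after the data had been seen.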

Additional observations from a re-analysis of the deposited data

Results flagged for a closer look

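Cd8b1 was flagged in the OT ovaries because 1 library lay apart from the other 3. OT2 was at 0.564 FPKM and OT1, OT3 and OT4 were listed at 0. The gap to the nearest library thus made up the whole range (ratio 1, Dixon's test at 95%). With the other 3 tied at 0, any OT2 value above 0 gives this ratio, so the flag does not measure how far OT2 lay. The OT2 ovary also had the highest Cd3e, Cd3g and Cd4 of the ovaries and the highest summed B cell list (119 FPKM beside as little as 13.8 in another OT ovary). Of 32 groups of values examined this was the only one flagged. The usual rate of chance flags, about 1 in 20, does not apply to values tied at 0.

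Cd3d differed between organs in its OT against OC difference by 3.12 on the log2 scale, because every OT ovary was below the mean FPKM of the OC ovaries and every OT uterus above that of the OC uteruses. The difference was tested, with an adjusted limma p of 0.844 (0.602 to 0.997 over the alternatives).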

How the results depend on the processing

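The 4 calls of Nkg7, Gzma, Gzmb and Prf1 between organs kept their direction and passed in every alternative, the mouse block included, and 4 members were called in each. In OT against OC the labels do not say whether the numbers shared by OC and OT mice link them. The mean r of same-numbered deviations was 0.153 for ovaries and 0.026 for uteruses, against -0.051 and -0.007 for other pairs. The ranges overlapped, so these r do not settle it. A fit with the numbers as a block, which leaves out OT4, called 1 member in each organ. Of all genes it called 105 ovarian and 666 uterine ones. A pseudocount of 1 gave 18 and 259 genes called, no filter 159 in the ovary, and total FPKM scaling 1 member (Gzmb) in the uterus. Leaving out 1 mouse gave 53 to 136 genes and 0 to 2 members in the ovary, 0 to 3 members in the uterus and 0 to 1 gene for the difference between organs in the response.

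Values near 0 turned sign. With a pseudocount of 1, Cd3g in the ovary was at 0.0034, Gzma in the response at -0.0044, and the ratios Cd8a to Cd4 (-0.14) and Cd3e to Ptprc (-0.12) in the ovary and Nkg7 to Cd3e (-0.16) and Gzma to Cd3e (-0.19) in the uterus turned negative. Cd4 was at 0.0679 in the uterus with the block and at -0.0350 between organs with total FPKM scaling. Leaving out each mouse in turn gave, for OT against OC in the ovary, -0.27 to 0.16 for Cd3g, -0.45 to 0.79 for Nkg7 and -0.92 to 0.14 for Prf1. In the uterus it gave -0.39 to 0.068 for Cd4 and -0.73 to 0.092 for Nkg7. Between organs Cd3d ran from -0.22 to 0.27, and in the response Gzma from -0.13 to 0.92 and Gzmb from -0.88 to 0.14. Among ratios, Cd8a to Cd4 ran from -0.41 to 0.51 in the ovary, -0.16 to 0.52 in the uterus and -0.34 to 0.20 between organs. Cd3e to Ptprc ran from -0.15 to 1.20 in the ovary, Nkg7 to Cd3e from -1.85 to 0.31 in the ovary and -0.42 to 0.97 in the uterus, and Gzma to Cd3e from -0.41 to 0.51 in the uterus. Gzmb to Gzma ran from -0.21 to 1.07 in the ovary and -0.13 to 0.55 between organs, and Nkg7 to Ptprc from -0.66 to 0.23 in the ovary and -0.73 to 0.13 in the uterus. The cause of these changes was not tested. With unknown depth, values of Cd8a, Cd8b1, Cd3e and Cd3d near 0 cannot be given a counting error.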
